A study of Mus musculus with 19 samples.

Results

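The genes described here are the 10 of de novo fatty acid synthesis, the route by which a cell builds fatty acids from citrate: Acly, Me1, Acaca, Acacb, Fasn, Elovl6, Scd1, Scd2, Srebf1 and Mlxipl. They are defined by name, with no threshold on a measured value, and all 10 were found among the 46078 genes of the table. RNA-seq was done on mouse mammary glands (MG) and mammary tumors (T) to ask how a mutant p53 carried by fibroblasts is reflected in the tissue. The MMTV-neu transgene expresses Erbb2 (neu) in the mammary epithelium, Fsp-Cre expresses the Cre recombinase in fibroblasts, and p53wm-R172H/+ is 1 Trp53 allele that yields the R172H protein after Cre recombination.

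The 3 MG-WT glands came from wild type mice of matched age. The 4 MG-N and the 4 MG-NP glands came from mice that bore tumors elsewhere, and were taken without malignant lesions. MG-N replicate 1 was MMTV-neu;Fsp-Cre, and the other 3 MG-N samples were MMTV-neu;p53wm-R172H/+ without Cre. The 4 T-N tumors were from MMTV-neu;Fsp-Cre mice, and the 4 MG-NP glands and 4 T-NP tumors were from MMTV-neu;p53wm-R172H/+;Fsp-Cre mice. The mice with transgenes were females on a mixed FVB, C57 and BALB/c background, and neither the sex nor the strain of the wild type mice is given in the sources used here. The ages at which glands and tumors were taken are not given per sample. The labels give replicate numbers but do not say which animal each sample came from, so the p-values measure only the spread between these samples. T-NP replicates 1 and 2 share a number in their library names, and whether they came from 1 mouse is not given. With these 2 averaged as 1 sample, the call of Acly in T-NP against MG-WT was lost (log2 fold change 0.93), and no other call of a member changed.

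De novo synthesis starts when ATP citrate lyase splits citrate in the cytosol into acetyl-CoA. Acetyl-CoA carboxylase turns it into malonyl-CoA, fatty acid synthase joins malonyl units into palmitate with NADPH as the reductant, and elongases and desaturases then lengthen palmitate and add a double bond. In the mammary gland the pathway is known from the adipocytes of the fat pad and from the alveolar epithelium of lactation, and it is known as a feature of many tumors.

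The 10 genes together took 3.11 to 6.38% of all reads in the 4 MG-N glands, 0.424 to 1.94% in MG-NP, 0.373 to 1.08% in T-N, 0.387 to 1.24% in T-NP and 0.139 to 0.146% in MG-WT. MG-N was above every other sample, and MG-WT below every other sample. Scd1 was the most or second most abundant transcript of the table by normalized count in each MG-N gland, at ranks 1 to 2, and Fasn stood at ranks 3 to 8. Acly, Me1, Acaca, Fasn, Elovl6 and Scd1 had their highest group mean in MG-N, and Srebf1 and Scd2 had theirs in the tumors, so that the 2 desaturases went apart.

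MG-WT stood apart from the other groups in ways that bear on each comparison with it. Its 3 libraries held 54677315 to 62645459 recovered reads and the other 16 held 20899152 to 27262440, so depth and genotype cannot be told apart. The defining markers of fat were nearly missing from MG-WT: Adipoq, the adipocyte hormone adiponectin, was at 1.71 to 23.4 normalized counts there, at 36543 to 47029 in MG-N and at 14468 to 38749 in MG-NP. All 9 white adipocyte markers were called higher in both MG-N and MG-NP than in MG-WT, and their mean level on the log2(count + 1) scale was 5.0 to 6.19 in MG-WT, 14.4 to 14.6 in MG-N, 13.1 to 14.4 in MG-NP, 3.35 to 8.80 in T-N and 5.82 to 7.21 in T-NP. The 9 luminal epithelial markers ran the other way, at 12.8 to 13 in MG-WT, 9.88 to 11 in MG-N, 9.28 to 11.1 in MG-NP, 12.1 to 12.4 in T-N and 12.3 to 12.8 in T-NP. In bulk tissue, fewer cells of a type and less RNA per cell cannot be told apart. The part of the fat and epithelial content in the results below was not tested. The 12 skeletal muscle markers took 1.77, 8.70, 0.0540 and 4.77% of the reads of MG-NP replicates 1 to 4, against at most 0.0712% in MG-N.

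For 8 of the 10 genes the RefSeq promoter table of GRCm38.p6 held a start site, 12 in all, and the 250 bases before each were searched on both strands. Scd1 and Scd2 had none there. The only windows of Acaca (chr11:84195188-84195437) and Acacb (chr5:114165268-114165517) preceded starts inside the annotated genes. The bases before the upstream ends of these 2 genes were thus not searched. The letters searched were TCACNCCAC, a sterol regulatory element (SRE) bound by the Srebf factors, CACGTG, the core E-box of the carbohydrate response element, CCAAT, the box bound by NF-Y, and GGGCGG, the GC box bound by Sp factors. The SRE letters were in 1 of the 12 windows and in 1.05% of all 32851 windows of the table. CACGTG was in 1 of 12 and 6.02%, CCAAT in 6 of 12 and 33.8%, and GGGCGG in 5 of 12 and 32.7%. A match is a description of the letters and not of binding. The windows of Fasn and Acly, which had their highest mean in MG-N, of Mlxipl, which was high only in MG-N and MG-NP, and of Srebf1, with 3 starts, which was high in the tumors, are given here 5′ to 3′ on the gene's strand, with matches in capitals. The first Mlxipl window precedes the upstream start and the second an internal start.
Fasn, chr11:120824548-120824797, minus strand: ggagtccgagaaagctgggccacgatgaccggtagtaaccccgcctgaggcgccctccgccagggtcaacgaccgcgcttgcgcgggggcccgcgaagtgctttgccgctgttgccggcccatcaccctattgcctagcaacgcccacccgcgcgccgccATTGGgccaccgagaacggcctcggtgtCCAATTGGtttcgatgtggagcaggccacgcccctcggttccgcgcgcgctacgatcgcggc
Acly, chr11:100528001-100528250, minus strand: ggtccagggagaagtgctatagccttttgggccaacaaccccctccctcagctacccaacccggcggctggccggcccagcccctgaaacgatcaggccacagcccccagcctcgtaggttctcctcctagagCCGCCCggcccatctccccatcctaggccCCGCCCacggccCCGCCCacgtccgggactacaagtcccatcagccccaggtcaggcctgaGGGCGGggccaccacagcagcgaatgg
Mlxipl, chr5:135089640-135089889, plus strand: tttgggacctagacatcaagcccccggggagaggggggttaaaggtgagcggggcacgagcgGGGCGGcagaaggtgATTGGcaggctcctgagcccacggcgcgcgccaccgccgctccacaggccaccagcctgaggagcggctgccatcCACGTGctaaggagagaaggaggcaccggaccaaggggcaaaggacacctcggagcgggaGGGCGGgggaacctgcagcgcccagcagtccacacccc
Mlxipl, chr5:135106641-135106890, plus strand: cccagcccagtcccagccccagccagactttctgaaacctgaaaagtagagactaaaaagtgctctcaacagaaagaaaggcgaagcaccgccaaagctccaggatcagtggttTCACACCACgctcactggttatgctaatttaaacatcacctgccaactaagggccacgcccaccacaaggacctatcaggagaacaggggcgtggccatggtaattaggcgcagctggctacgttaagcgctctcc
Srebf1, chr11:60222582-60222831, minus strand: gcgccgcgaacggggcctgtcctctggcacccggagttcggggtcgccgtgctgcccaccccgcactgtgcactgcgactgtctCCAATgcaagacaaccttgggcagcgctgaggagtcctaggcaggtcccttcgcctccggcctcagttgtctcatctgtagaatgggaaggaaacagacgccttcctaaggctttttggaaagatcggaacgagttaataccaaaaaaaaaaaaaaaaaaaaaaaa
Srebf1, chr11:60220628-60220877, minus strand: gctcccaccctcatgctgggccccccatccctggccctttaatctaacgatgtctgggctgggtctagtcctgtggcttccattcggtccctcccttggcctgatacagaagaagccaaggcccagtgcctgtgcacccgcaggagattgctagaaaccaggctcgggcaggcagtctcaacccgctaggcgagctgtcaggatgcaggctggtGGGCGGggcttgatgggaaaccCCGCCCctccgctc
Srebf1, chr11:60210472-60210721, minus strand: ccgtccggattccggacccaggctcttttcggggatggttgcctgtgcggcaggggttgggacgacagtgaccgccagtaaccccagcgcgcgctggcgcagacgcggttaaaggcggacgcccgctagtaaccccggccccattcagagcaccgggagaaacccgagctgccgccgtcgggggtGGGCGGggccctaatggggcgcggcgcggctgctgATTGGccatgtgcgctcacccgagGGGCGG
The Fasn window held CCAAT 3 times, 2 of them overlapping on opposite strands 62 to 55 bases before the start. The Acly window held GGGCGG 4 times. The SRE letters stood 136 to 128 bases before the internal Mlxipl start, and the E-box letters 98 to 93 bases before its upstream start. Of the 3 Srebf1 windows, the most upstream and the most downstream held 1 CCAAT each, and the middle and the most downstream held GGGCGG 2 times each.

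Acly and Me1 supply the pathway, Acly with cytosolic acetyl-CoA and Me1, the cytosolic malic enzyme, with NADPH. Acly (chr11:100476353-100528000, minus strand, GRCm38) had 5968, 4417 and 5887 normalized counts in the wild type glands. In the transgenic glands the values were 51329, 40507, 87637 and 13903 for MG-N and 8888, 10105, 22938 and 8362 for MG-NP. In tumors it was at 7895, 8016, 9738 and 9905 in T-N and at 18408, 12648, 7604 and 9178 in T-NP. All samples of the other groups lay above MG-WT, and MG-N overlapped MG-NP through MG-N replicate 4, its lowest sample. Me1 (chr9:86581371-86695953, minus strand) had 1369, 1504 and 1253 in the wild type glands. The MG-N glands had 15298, 14265, 37889 and 9870.4, and the MG-NP glands 1894, 5029, 4595 and 6159.5. The T-N tumors had 6815, 7591, 10401 and 11994, and the T-NP tumors 10073, 7390.1, 4239 and 5919. Me1 was the only enzyme besides Scd2 whose tumors averaged above MG-NP, and its lowest level in any transgenic sample, in MG-NP replicate 1, was still above the 3 MG-WT glands.

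Acaca and Acacb are the 2 acetyl-CoA carboxylases. The Acaca enzyme is cytosolic and feeds synthesis, and the Acacb enzyme sits at the mitochondrion, where its malonyl-CoA restrains the entry of fatty acids for oxidation. Acaca (chr11:84129672-84401651, plus strand) had 5421, 3929 and 5374 normalized counts in the wild type glands. In the transgenic glands the values were 99349.7, 66224, 126434 and 54378 for MG-N and 12226, 24173, 29346 and 30754 for MG-NP. In tumors it was at 4539, 5798, 7359 and 5113 in T-N and at 9430.1, 5087, 5859 and 6348 in T-NP. The order was MG-N, then MG-NP, then both tumor groups and MG-WT, which overlapped each other. Acacb (chr5:114146535-114250761, plus strand) had 847, 1230.0 and 759 in the wild type glands. The MG-N glands had 10435, 6544, 9511 and 6205, and the MG-NP glands 7703, 11519, 8564 and 21406. The T-N tumors had 746, 611, 1093 and 1684, and the T-NP tumors 638, 739, 362 and 577. Here MG-NP overlapped MG-N, and T-NP lay below MG-WT in every sample. The highest Acacb value was in MG-NP replicate 4, which also had the highest level of the brown adipocyte marker Ucp1, 56926 normalized counts, and 4.77% of its reads on the muscle markers. The part of either was not tested.

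Fasn, fatty acid synthase (chr11:120805846-120824547, minus strand), had 12272, 7695 and 12129.6 normalized counts in the wild type glands. In the transgenic glands the values were 296510.3, 318586, 495185 and 189163 for MG-N and 27830.3, 98285, 160798 and 112724 for MG-NP. In tumors it was at 8739, 6769.6, 22346 and 14737 in T-N and at 29762, 20353, 12954 and 14089 in T-NP. Every MG-N gland was above every MG-NP gland, MG-NP replicate 1 overlapped the tumors, and T-NP was above MG-WT without overlap. Per kilobase of exon, the scale on which genes can be compared, Fasn averaged 29676 ± 11587 (SD, n = 4) over the MG-N glands, against 977 ± 238 (SD, n = 3) for wild type glands.

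Elovl6 encodes the elongase that turns palmitate into stearate. Elovl6 (chr3:129532355-129638495, plus strand) had 747, 568 and 786 normalized counts in the wild type glands. The MG-N glands had 11889, 9052, 34407 and 6649, and the MG-NP glands 1261, 1232, 2615 and 5766. The T-N tumors had 1008, 1792, 1769 and 1775, and the T-NP tumors 1712, 1260.1, 1038 and 913. MG-N was above all other samples, and each sample of the other 3 transgenic groups was above MG-WT. T-N replicate 1 was at 1008, away from the other 3 T-N tumors, which lay within 1769 and 1792.

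Scd1 and Scd2 encode stearoyl-CoA desaturases, which make oleate and palmitoleate, and they are neighbours on chromosome 19. Scd1 (chr19:44394455-44407879, minus strand) had 3725, 7027 and 5029 normalized counts in the wild type glands. In the transgenic glands the values were 924998, 580142, 766359 and 458124 for MG-N and 29866, 270965, 210472 and 81276 for MG-NP. In tumors it was at 77849, 36814, 168284 and 29294 in T-N and at 159307, 102589, 30443 and 51505 in T-NP. MG-N was above every other group, MG-NP and both tumor groups overlapped, and MG-WT was below all of them. Scd2 (chr19:44293674-44306864, plus strand) had 3081, 3733 and 3766 in the wild type glands. The MG-N glands had 13375, 9379, 10860.0 and 3180.3, and the MG-NP glands 2243, 2377, 4175 and 2575. The T-N tumors had 8386, 23184, 25935 and 39002, and the T-NP tumors 25903, 20267, 8524 and 10468. The tumors held the most Scd2 and MG-NP the least, and T-N and T-NP lay above MG-WT in every sample. Reads of such paralogues can be shared between them when counted, so the values of each carry that uncertainty.

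Srebf1 and Mlxipl encode the 2 transcription factors that are known to turn on the enzymes, Srebf1 downstream of insulin and sterols and Mlxipl (ChREBP) downstream of glucose. Srebf1 (chr11:60199089-60222581, minus strand) had 5376, 6893 and 5877 normalized counts in the wild type glands. In the transgenic glands the values were 7265, 10095, 9072 and 7491 for MG-N and 5968, 6039, 6851 and 6398 for MG-NP. In tumors it was at 61807, 10546, 51640.1 and 26418 in T-N and at 67026, 60689, 34302 and 55522 in T-NP. Each tumor was above each gland, though T-N replicate 2 was just above the highest MG-N gland. Of the exon bases of Srebf1, 1.93% are shared with Rai1 on the opposite strand, and the strand setting of the counting is not given in the sources used here. Mlxipl (chr5:135089890-135138382, plus strand) had 75, 56 and 58 in the wild type glands. The MG-N glands had 1656, 1723, 1841 and 1239, and the MG-NP glands 844, 2966, 949 and 3007. The T-N tumors had 55, 34, 105 and 55, and the T-NP tumors 67, 51, 29 and 59. Mlxipl was 844 or more in each gland of transgenic mice and at most 105 elsewhere, so that tumors and MG-WT overlapped and both lay apart from MG-N and MG-NP.

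**Figure D1:**
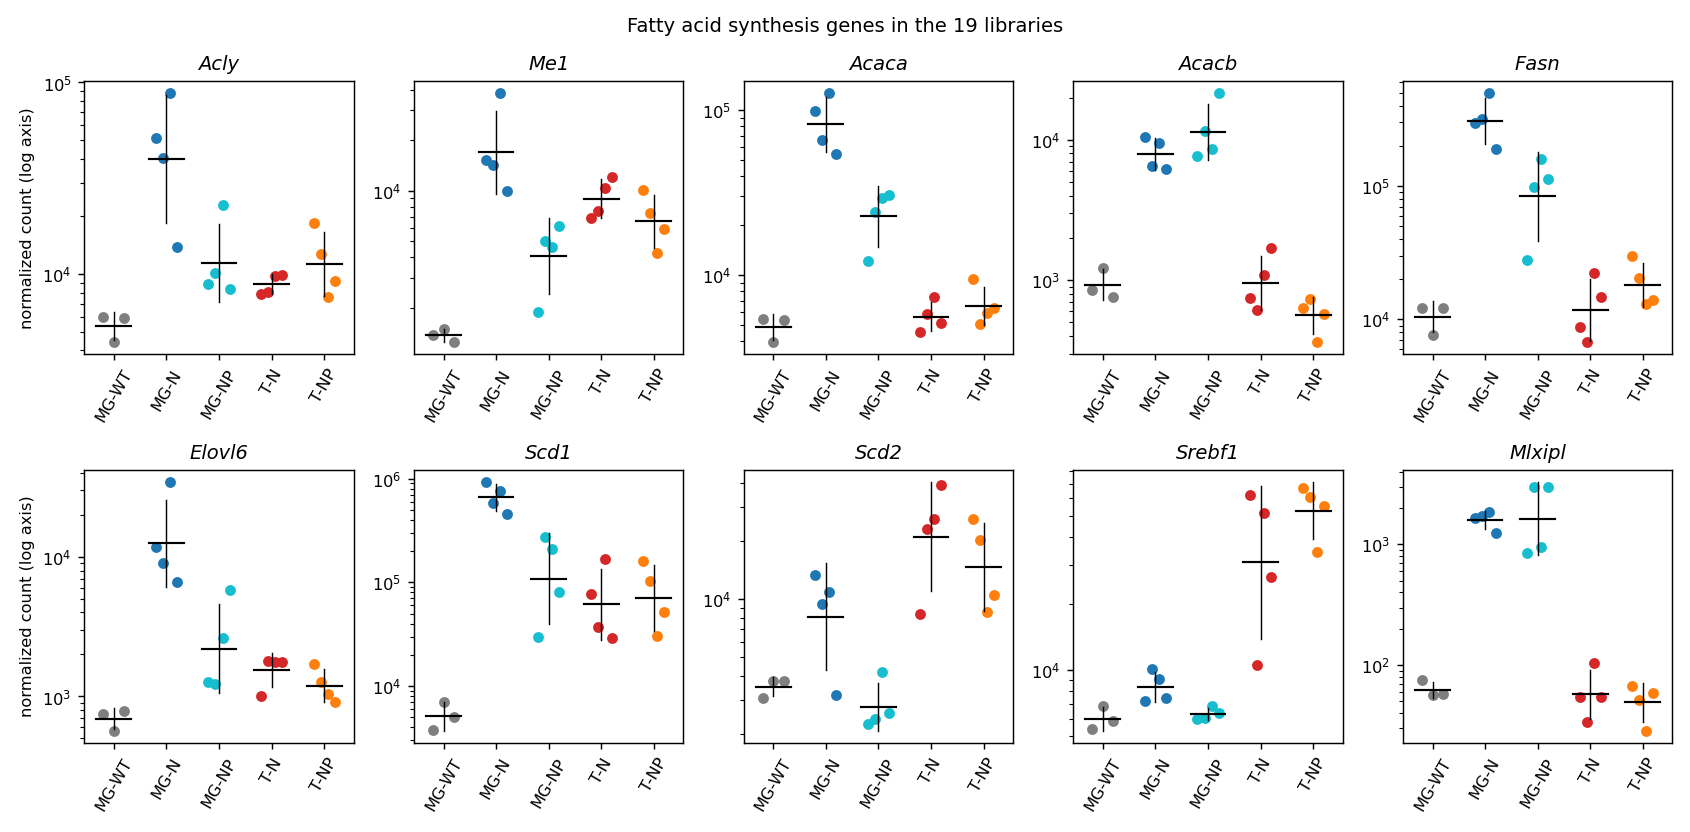
Normalized count (log axis) of each of the 10 genes in the 19 libraries, by group. Points are libraries, the horizontal bar is the mean of the log2 values and the vertical line is 1 SD on that scale. For 6 genes MG-N holds the highest group mean, for Srebf1 and Scd2 the tumors do, Acacb is highest in MG-NP, and Mlxipl is high in MG-N and MG-NP with tumors at most at 105.

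Compared with MG-WT, MG-N glands had higher levels of 9 of the 10 genes and lower levels of none, by limma at an adjusted p under 0.05 and at least 2-fold. Over all 19017 genes tested, 19.1% were called higher and 17.9% lower. The median log2 fold change of the 10 was 3.85, and 0.02 over all genes. Scd1 rose by 7.02 ± 0.31 (log2 fold change ± SE, adjusted p = 1.9e-06), Fasn by 4.87 ± 0.33 (adjusted p = 1.5e-05) and Mlxipl by 4.66 ± 0.18 (adjusted p = 1.2e-06). Elovl6, Acaca, Me1, Acacb and Acly rose by 2.89 to 4.17. Scd2 rose least, by 1.21 ± 0.44 (adjusted p = 0.0433), and Srebf1, at 0.48 ± 0.15 (adjusted p = 0.0254), stayed under 2-fold. The call of Scd2 was lost when any 1 of the 7 samples other than MG-N replicate 4 was left out. All 9 white adipocyte markers also rose and all 9 luminal markers fell in this comparison.

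Compared with MG-WT, MG-NP glands had higher levels of 8 of the 10 genes and lower levels of none, where 16.4% of 19065 genes were called higher and 16.2% lower. The log2 fold changes were 4.69 ± 0.51 for Mlxipl (adjusted p = 6.0e-04), 4.41 ± 0.73 for Scd1 (adjusted p = 0.00296), 3.61 ± 0.36 for Acacb (adjusted p = 4.5e-04) and 3.0 ± 0.57 for Fasn (adjusted p = 0.00495). Acaca, Elovl6, Me1 and Acly rose by 1.09 to 2.23. Srebf1 was at 0.07 and Scd2 at -0.35, and neither passed. All 12 skeletal muscle markers and all 9 white adipocyte markers rose as well. With the muscle marker level as a covariate, 1 of the 8 calls remained, that of Acly, now at 3.0. The other 7 had larger standard errors and adjusted p = 0.102 to 0.447, with Scd1 at 5.0, Fasn at 3.96, Acaca at 2.45 and Elovl6 at 1.88, no lower than without the covariate, and Mlxipl at 2.31, Acacb at 2.43 and Me1 at 1.21, lower than without it. The muscle level differs between the groups without overlap, so muscle content and group cannot be told apart here. The share of all genes called in this fit is not reported here. The loss of calls can thus not be read as particular to these members. Without MG-WT replicate 3 there were 5 calls, those of Me1, Elovl6 and Acly being lost. Elovl6 and Acly were also lost without MG-WT replicate 1 or 2 or MG-NP replicate 3, and Acly without MG-NP replicate 2.

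Tumors were then set against glands of the same label, N or NP, the comparison that asks how established tumors differ from gland without lesions. All 4 T-N tumors were MMTV-neu;Fsp-Cre, and 3 of the 4 MG-N glands were MMTV-neu;p53wm-R172H/+ without Cre. From MG-N to T-N, tissue and these genotypes therefore cannot be told apart for those 3 glands. From MG-N to T-N, 7 of the 10 genes fell and 1, Srebf1, rose, where 22.3% of 17950 genes were called lower and 12.8% higher. The median log2 fold change of the 10 was -3.04, and -0.05 over all genes. The falls were -4.78 ± 0.32 for Mlxipl (adjusted p = 4.6e-05), -4.70 ± 0.43 for Fasn (adjusted p = 1.2e-04), -3.87 ± 0.29 for Acaca (adjusted p = 5.7e-05) and -3.43 ± 0.57 for Scd1 (adjusted p = 0.00151). Acacb, Elovl6 and Acly fell by 2.17 to 3.06. Srebf1 rose by 1.87 ± 0.50 (adjusted p = 0.0136), the opposite direction to the 7 genes that fell. Scd2, at 1.38 ± 0.56 (adjusted p = 0.0666), and Me1, at -0.92 ± 0.39 (adjusted p = 0.0794), did not pass, although without T-N replicate 1 Scd2 was called and 2 members were higher, and without MG-N replicate 4 Me1 was called lower. All 9 white adipocyte markers fell in this comparison, and of the 9 luminal markers 7 rose and 1 fell. Neither level overlapped between the groups.

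From MG-NP to T-NP, 4 of the 10 genes fell and 2 rose, where 24.0% of 17880 genes were called lower and 14.7% higher. The falls were -5.03 ± 0.49 for Mlxipl (adjusted p = 8.1e-05), -4.33 ± 0.34 for Acacb (adjusted p = 3.1e-05), -2.20 ± 0.53 for Fasn (adjusted p = 0.00768) and -1.81 ± 0.32 for Acaca (adjusted p = 0.00165). Srebf1 rose by 3.06 ± 0.22 (adjusted p = 2.1e-05) and Scd2 by 2.42 ± 0.37 (adjusted p = 7.9e-04). Acly was at -0.02 ± 0.38 and Scd1 at -0.61 ± 0.77, and neither these nor Me1 or Elovl6 passed. All 12 muscle markers and all 9 white adipocyte markers fell in this comparison, and of the 9 luminal markers 8 rose and 1 fell. With the muscle level as a covariate the call of Scd2 was lost (log2 fold change 1.22, adjusted p = 0.065), and Acly was at -1.42 (adjusted p = 0.016). The muscle level was at least 9.24 in MG-NP and at most 8.62 in T-NP, so that here too it cannot be told apart from the group.

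**Figure D2:**
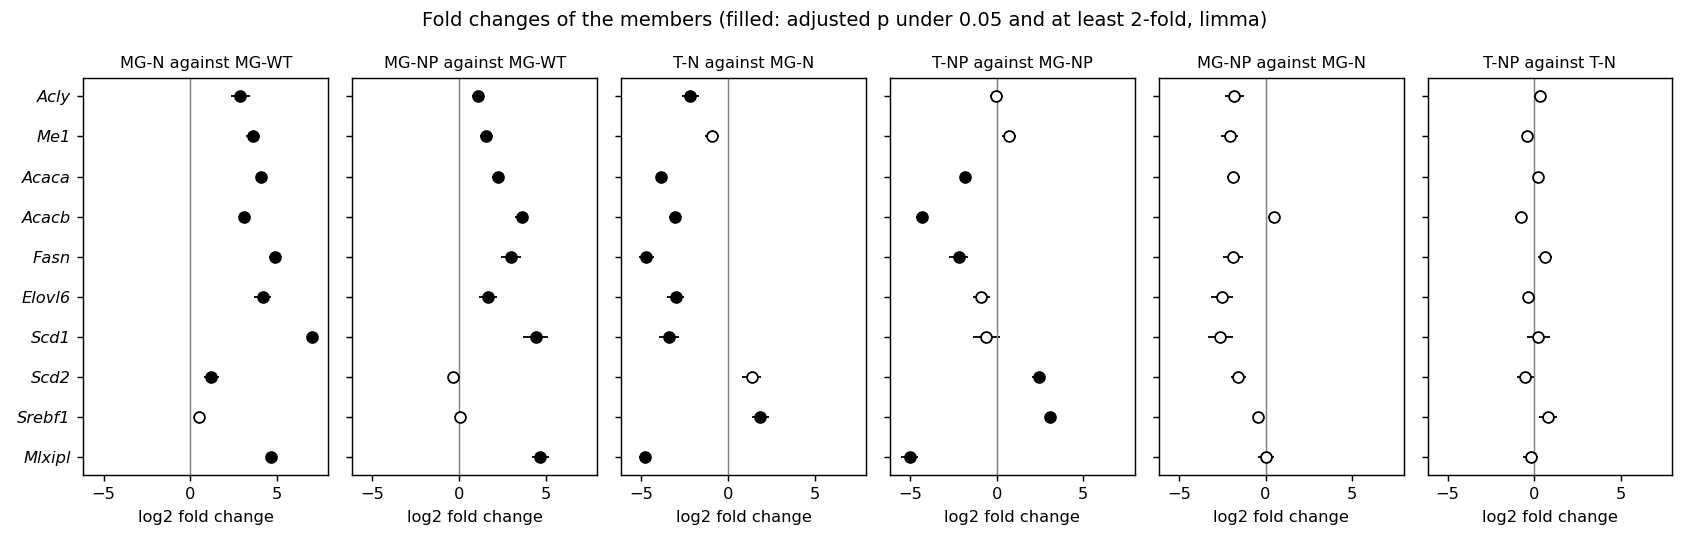
Log2 fold change of each of the 10 genes in 6 comparisons, from limma on log2(normalized count + 1). Points are estimates, bars are 1 SE and filled points have an adjusted p under 0.05 with at least a 2-fold change: 9 of 10 are filled in MG-N against MG-WT, and none in the 2 comparisons between genotypes at right.

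The comparison of MG-NP with MG-N asks what the mutant allele in fibroblasts does in glands. As 3 of the 4 MG-N glands lacked Cre, Cre and the recombined allele cannot be told apart for them. No member was called by limma or by edgeR, and neither was any other of 18563 genes by limma (0.0%). At an unadjusted p under 0.05, limma gave 8 of the 10 members and 10.5% of all genes. DESeq2 on the recovered reads called 7 members lower in MG-NP, Acaca, Acly, Fasn, Scd2, Me1, Scd1 and Elovl6, where it called 0.609% of genes lower. In 6 of the 10, Acaca, Fasn, Me1, Scd1, Elovl6 and Srebf1, every MG-NP gland was below every MG-N gland, against 4.15% of all genes tested. The log2 fold changes were -2.60 ± 0.73 for Scd1 (adjusted p = 0.327), -2.51 ± 0.63 for Elovl6 (adjusted p = 0.322), -2.06 ± 0.48 for Me1 (adjusted p = 0.306) and -1.85 ± 0.38 for Acaca (adjusted p = 0.305). Fasn was at -1.87 ± 0.59, Acly at -1.80 ± 0.57 and Scd2 at -1.56 ± 0.44. Acacb, at 0.50 ± 0.34, and Mlxipl, at 0.03 ± 0.45, were the 2 with positive values. The 9 white adipocyte markers had a median of -0.83 here and 5 of them passed an unadjusted p under 0.05, the 8 fibroblast markers had a median of -1.19 with 5 of 8, and the 12 muscle markers a median of 6.24 with 12 of 12. In MG-NP replicate 3, with the least muscle (0.0540% of reads), Acly and Scd2 were above MG-N replicate 4. The 6 genes without overlap were picked on all MG-NP glands, so this gland says nothing further on them. With the muscle level as a covariate Acaca was at -2.04 and Scd1 at -2.65, and with the white adipocyte level as a covariate they were at -1.21 and -2.05. In that second fit Fasn was at -0.86, Elovl6 at -1.33 and Me1 at -1.28, each closer to 0 than without it, Scd2 was at -1.53 and Acly at -2.03, and Acacb and Mlxipl were at 1.30 and 0.97. The white adipocyte level was 14.38 to 14.56 in MG-N and 13.06 to 14.41 in MG-NP, overlapping only through MG-NP replicate 4. In the fit with that level, fat content and group could thus barely be told apart. The part of the fat, fibroblast and muscle content in these values was not tested further.

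The comparison of T-NP with T-N asks the same of tumors. No member was called by limma, edgeR or DESeq2, 1 of 10 passed an unadjusted p under 0.05 in limma, where 7.27% of all genes did, and limma called 0.0361% of 16638 genes higher and 0.00601% lower. No member had groups that did not overlap, where 2.64% of all genes did so upward and 1.57% downward. The largest values were 0.78 ± 0.53 for Srebf1, -0.77 ± 0.34 for Acacb and 0.63 ± 0.40 for Fasn (adjusted p = 0.766, 0.686 and 0.757). The standard errors of the 10 ran from 0.22 to 0.66 on the log2 scale, so small changes were not detectable with 4 tumors in each group. Whether the change from gland to tumor differed between genotypes was tested by the interaction of tissue and genotype. It includes the change from MG-N to T-N, in which Cre and the p53wm allele also differ for most glands. No member and no gene (0.0%) was called by limma, and no member by edgeR. At an unadjusted p under 0.05 limma gave 7 of 10, against 7.93% of all genes, and DESeq2 called Acaca and Acly higher, as it did 0.258% of all genes. The interaction was 2.82 ± 0.99 for Scd1 (adjusted p = 0.526), 2.50 ± 0.72 for Fasn (adjusted p = 0.48) and 2.06 ± 0.45 for Acaca (adjusted p = 0.346), where a positive value stands for a smaller fall in the mice with mutant fibroblasts. Without MG-NP replicate 3 limma called 1 member, Acaca, higher, and 0.0557% of all genes higher and 0.927% lower.

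Against the MG-WT glands, T-N tumors had higher levels of 5 of the 10 genes and lower levels of none, where 17.4% of 18236 genes were called higher and 25.0% lower. These were Scd1 at 3.59 ± 0.58 (adjusted p = 0.00148), Me1 at 2.71 ± 0.22 (adjusted p = 8.1e-05), Scd2 at 2.58 ± 0.46 (adjusted p = 0.00237), Srebf1 at 2.35 ± 0.56 (adjusted p = 0.00875) and Elovl6 at 1.15 ± 0.25 (adjusted p = 0.00532). T-NP tumors had 5 of 10 higher and none lower, where 19.8% of 18233 genes were called higher and 28.0% lower. The 5 were Scd1 at 3.81 ± 0.52, Srebf1 at 3.13 ± 0.23, Me1 at 2.26 ± 0.26, Scd2 at 2.07 ± 0.36 and Acly at 1.07 ± 0.28. The call of Acly was lost without MG-WT replicate 2 or T-NP replicate 1. Both comparisons share the MG-WT glands. Fasn, the enzyme that makes the chain, was at 0.18 ± 0.41 in T-N (adjusted p = 0.735) and at 0.80 ± 0.30 in T-NP (adjusted p = 0.0413), under 2-fold in both. Acaca was at 0.21 and 0.42, and Mlxipl at -0.12 and -0.34. Of the 9 white adipocyte markers, 0 rose and 1 fell in T-N, and 4 rose and 3 fell in T-NP. Of the 9 luminal markers, 2 rose and 2 fell in each. In these comparisons Scd1, Scd2 and Me1 were higher, while the carboxylases and the synthase were not called.

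Srebf1 and Fasn were ordered differently among the groups. The ratio of Fasn to Srebf1, each per kilobase of exon, was 0.575 to 1.17 in MG-WT, 13 to 28.1 in MG-N, 2.40 to 12.1 in MG-NP, 0.0728 to 0.33 in T-N and 0.131 to 0.229 in T-NP. All 8 tumors lay below MG-WT and all 8 glands of transgenic mice above it. Among the T-N tumors, Srebf1 was high in replicates 1 and 3 and lower in replicates 2 and 4. The mean log2(count + 1) of the 7 milk protein markers in T-N replicates 1 to 4 was 13.7, 5.95, 14.1 and 8.24. It was thus high in the same 2 tumors, and it was 12.2 to 13.5 in T-NP. The pattern in T-N was not particular to milk genes. The white adipocyte level was 7.71, 3.35, 8.80 and 6.63 in these tumors. Replicates 1 and 3 were also the 2 highest for the brown adipocyte, fibroblast, skeletal muscle, basal epithelial and T cell markers. They were not the 2 highest for the luminal, macrophage, endothelial, B cell, liver or epidermal markers. In MG-NP the milk protein markers reached 8.08 to 13.1 with Srebf1 at no more than 6851. Milk protein markers and Srebf1 thus did not move together in glands. The part of any of these lists in the Srebf1 result was not tested.

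**Figure D3:**
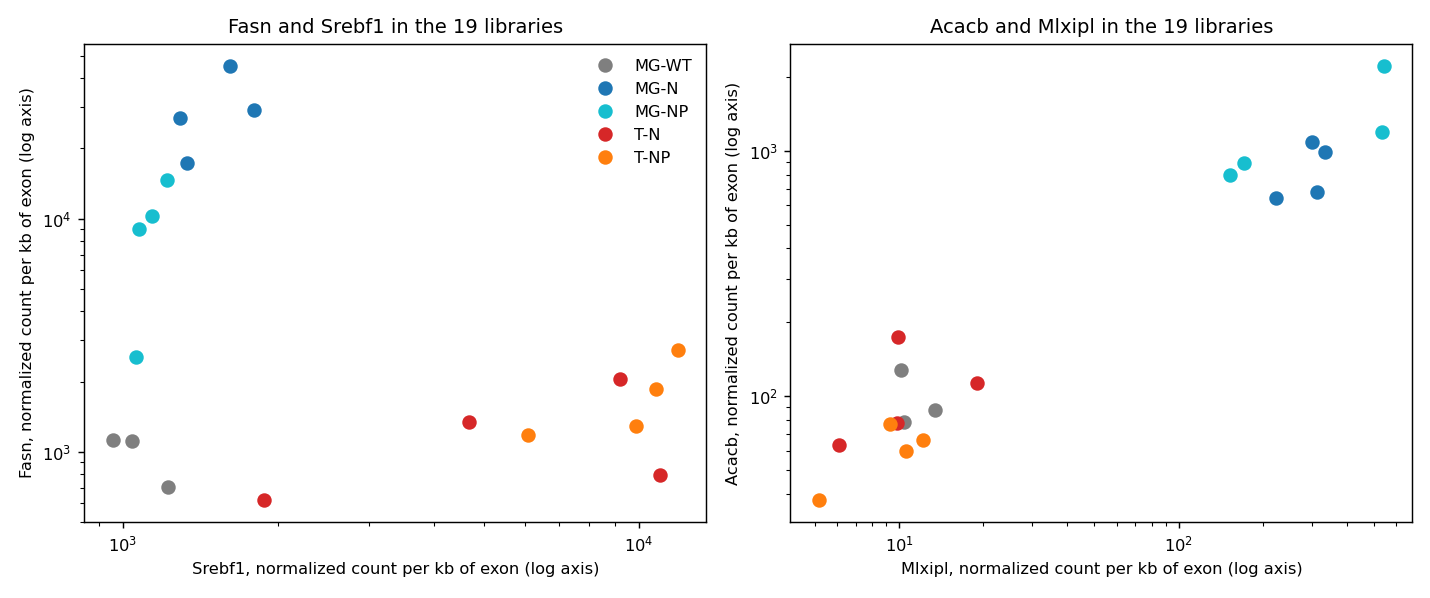
Normalized count per kilobase of exon in each library for Fasn against Srebf1 (left) and Acacb against Mlxipl (right), both axes logarithmic, 1 point for each of the 19 libraries. At left the tumors sit at high Srebf1 and low Fasn, with ratios of 0.0728 to 0.33, and at right MG-N and MG-NP stand apart from the rest on both axes.

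**Figure D4:**
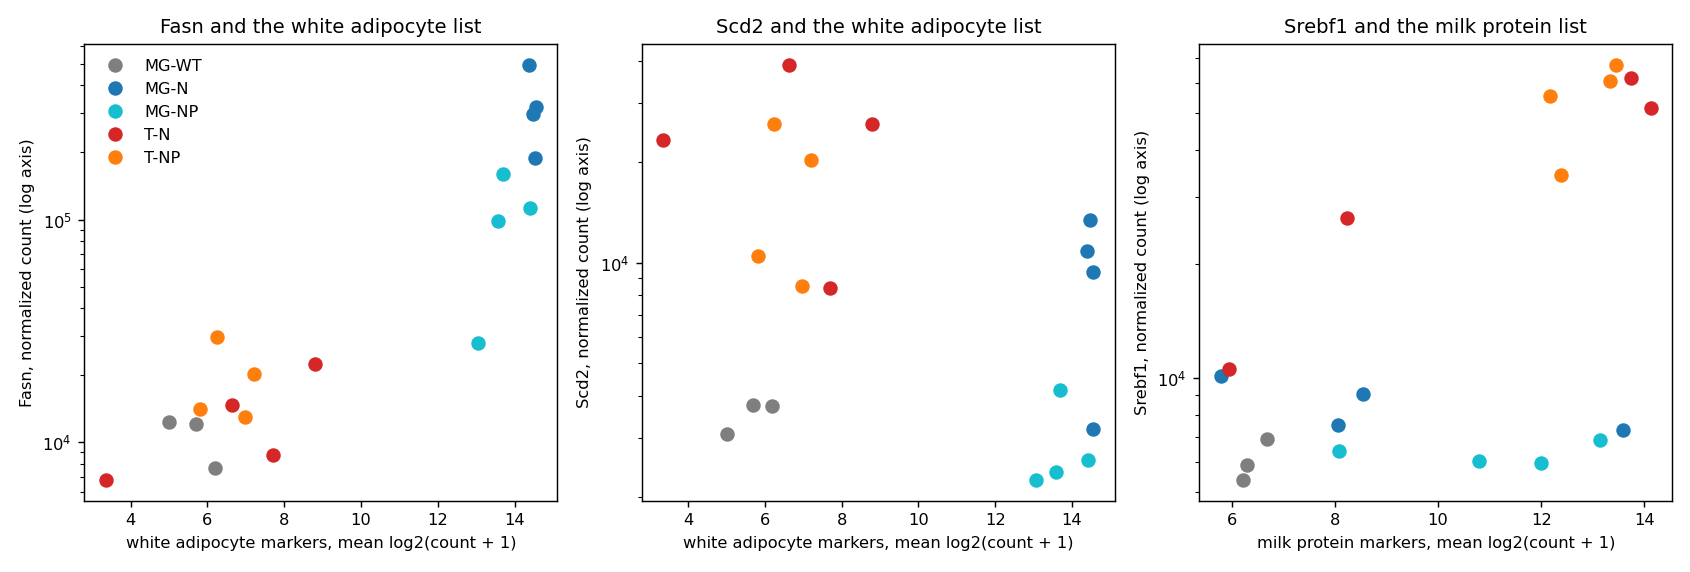
Fasn and Scd2 (normalized count, log axis) against the mean log2(count + 1) of 9 white adipocyte markers, and Srebf1 against that of 7 milk protein markers, 1 point for each library. The MG-N and MG-NP glands, at an adipocyte level of 13.1 or more, hold the highest Fasn counts except for MG-NP replicate 1, and MG-WT and tumors lie at 8.80 or less on that axis, while Scd2 is highest in tumors and T-N replicates 2 and 4 are low on the milk axis.

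The 2 paralogue pairs were compared as ratios within each library, which do not depend on how libraries were scaled. The ratio of Scd1 to Scd2 per kilobase was 1.35 to 2.10 in MG-WT, 69.1 to 161 in MG-N, 14.9 to 127 in MG-NP, 0.839 to 10.4 in T-N and 3.99 to 6.87 in T-NP. MG-N and MG-NP lay above all tumors, and the 2 overlapped. The log2 ratio was 4.80 lower in T-N than in MG-N (difference -4.80) and 3.03 lower in T-NP than in MG-NP (difference -3.03), each with a two-sided exact permutation p of 0.0286, the smallest these group sizes allow, and 0.0571 after adjustment over the 16 tests of both ratios. No ratio test passed 0.05 after that adjustment. The ratio of Acaca to Acacb was 1.80 to 3.99 in MG-WT, 4.94 to 7.50 in MG-N, 0.810 to 1.93 in MG-NP, 1.71 to 5.34 in T-N and 3.88 to 9.10 in T-NP. It was lower in every MG-NP gland than in every MG-N gland, by -2.35 on the log2 scale (exact permutation p = 0.0286, adjusted 0.0571), and higher in T-NP than in MG-NP by 2.52 (the same p-values). MG-NP was the group in which the mitochondrial carboxylase came closest to the cytosolic one or exceeded it, and it was also the group with the most muscle RNA. Against MG-N, the log2 fold change in MG-NP was -1.85 for Acaca and 0.50 for Acacb. The ratio in MG-NP replicates 1 to 4 was 0.895, 1.18, 1.93 and 0.810. The muscle markers took 1.77, 8.70, 0.0540 and 4.77% of their reads. Muscle is known to express Acacb, and the part of muscle in this ratio was not tested.

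**Figure D5:**
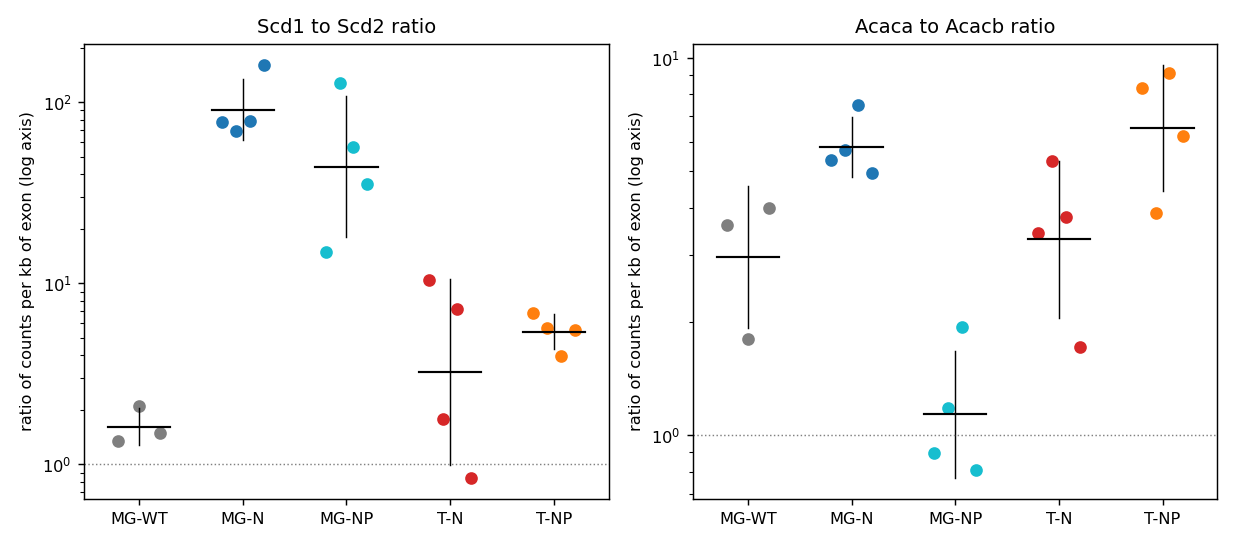
Ratio of Scd1 to Scd2 and of Acaca to Acacb, from normalized counts per kilobase of exon (log axis), in each library. Points are libraries, the bar is the mean of the log2 ratios and the line is 1 SD, and the dotted line marks equal levels: Scd1 to Scd2 is 69.1 or more in MG-N, and Acaca to Acacb is lowest in MG-NP.

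The genes around the pathway were described from 7 lists of 72 genes. In MG-N against MG-WT, 36 of 70 tested were higher and 6 lower, where 19.1% of all genes were called higher and 17.9% lower. Of citrate, acetyl-CoA and NADPH supply 10 of 12 genes were higher, and of triglyceride synthesis 8 of 10. Thrsp, a lipogenic regulator, rose by 8.09 on the log2 scale, Mogat1, of triglyceride synthesis, by 5.99, Lpl, which takes up lipoprotein fat, by 5.73 and Acss2, which makes acetyl-CoA from acetate, by 3.45. Srebf2, the sterol-directed relative of Srebf1, fell by 2.21 and was lower in MG-NP too, by 2.06. For MG-NP glands against MG-WT the counts were 30 of 70 higher and 6 lower, with 8 of 10 triglyceride genes higher. Of all genes, 16.4% were called higher there and 16.2% lower.

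From MG-N to T-N, 25 of 70 genes around the pathway fell and 3 rose, where 22.3% of all genes were called lower and 12.8% higher. The supply list had 9 of 12 lower, led by Slc25a1, the mitochondrial citrate carrier, at -2.60, and the triglyceride list had 7 of 10 lower, led by Mogat1 at -5.87. Lpl fell by 6.85 and Thrsp by 6.07. Scd3, another stearoyl-CoA desaturase, rose by 3.08, which put it with Scd2 and not with Scd1. Its normalized counts were low, at 10.3 to 25.5 in MG-N and 135 to 186 in T-N. The uncertainty of reads shared between paralogues holds for Scd3 too. From MG-NP to T-NP, 22 of 70 fell and 8 rose, where 24% of all genes were called lower and 14.7% higher. Cpt1b, the muscle carnitine palmitoyltransferase, fell by 4.35, Dgat2, which makes triglyceride, by 4.0 and Nr1h3, a liver X receptor that is known to induce Srebf1, by 3.03. Scap, the escort protein that Srebf factors need for processing, rose by 1.14, Scd3 by 1.92 and Btn1a1, of the milk fat globule, by 2.11. Of the elongases and desaturases in both comparisons, Elovl4 fell most, by 4.19 and 2.66.

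None of these 72 genes was called by limma in MG-NP against MG-N, in T-NP against T-N or in the interaction. At an unadjusted p under 0.05 limma gave 17 of 71, 6 of 66 and 13 of 71 tested. Over all genes it gave 10.5%, 7.27% and 7.93%. Against MG-WT, T-N tumors had 14 of 67 higher and 8 lower, and T-NP tumors 19 of 67 higher and 10 lower. Of all genes, 17.4% were called higher and 25% lower in T-N, and 19.8% and 28% in T-NP. Scd3 rose in both, by 3.81 and 2.43, as did Gpat4, of glycerolipid synthesis, by 2.03 and 2.35 and Mdh1, malate dehydrogenase, by 2.47 and 2.53. Of the 5 genes of milk fat chain termination and uptake, 2 were higher and 0 lower in T-N. In T-NP 3 were higher and 1 lower. The largest rise among them was that of Xdh, of milk fat secretion, in T-N (2.53). In T-NP it was that of Plin2, a lipid droplet coat protein (3.12). Thrsp rose by 5.30 in T-NP. Its normalized counts were 1291 to 8455 in T-NP and 15.8 to 3652 in T-N, which overlapped.

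The profiles of the members over the 19 libraries were compared, each as log2 values centered on its own mean, by root mean square distance. Among the 10, Acaca and Fasn were closest (0.53), followed by Acaca and Elovl6 (0.65) and by Acacb and Mlxipl (0.78). Of 20392 genes, with the members themselves left out, the nearest to Elovl6 were Slc25a1 (0.57), Acss2 (0.59) and Insig1 (0.69). The nearest to Acly was Tkt (0.45). For Fasn they were Gm16235 (0.67), Pcx (0.69) and Pnpla5 (0.70), for Acaca Gm16235 (0.46), Gm15498 (0.53) and Tmem120b (0.53), and for Me1 Tkt (0.57), Lama4 (0.64) and Gm30270 (0.64). For Srebf1 they were Tspan15 (0.33), Rab3d (0.41) and Xbp1 (0.44), and for Scd2 Plod2 (0.63), Gpsm2 (0.65) and Rcn1 (0.65). Mlxipl lay nearest to Pfkfb1 (0.50), Lgals12 (0.54) and Ranbp3l (0.57), and Acacb to Gm26684, Cmbl and 5730585A16Rik (0.59 each). Scd1 had no near neighbour, with Npr3 first at 1.05, then Pf4 (1.06) and Scp2-ps2 (1.07). Among the 3 nearest genes of each member, Acaca and Fasn shared Gm16235, and Acly and Me1 shared Tkt. No other member, Srebf1 included, shared any of its nearest genes with another. The points share their libraries, and these distances are a description.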

How the data were processed

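RNA-seq libraries of 19 samples were used, grouped by the sample records. The values deposited by the authors are a normalized signal, made with DESeq2 by dividing the reads counted on each gene by the size factor of its library. Reads were aligned to GRCm38 with TopHat2 (version 2.1.1 in the submitters' processing notes) and Bowtie2, and the counting tool, annotation and strand setting are not given in the sources used here. Whole reads were recovered by dividing by each library's step, and 100% of values were whole within 0.05 reads. Genes were named with GENCODE vM21 (849 identifiers unmatched). T-NP replicates 1 and 2 share a number in their library names and had the lowest chi-square per degree of freedom of all pairs within a group (39.2, the others 53.9 to 571). They were kept as 2 samples, with their average as an alternative.

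Genes with at least 10 normalized counts in as many samples as the smaller group were tested with limma (version 3.58.1, eBayes with a trend) on log2(normalized count + 1), using only the groups compared, with Benjamini-Hochberg adjustment over all genes. A fold change on this scale understates that of low genes. Calls needed an adjusted p under 0.05 and a 2-fold change. Alternatives were edgeR (version 4.0.16) and DESeq2 (version 1.42.0) on recovered reads, other pseudocounts, filters and scaling, marker covariates, a replicate block and omission of each sample. Ratios were tested by exact permutation. The code was tested on simulated data. The rule gives the members by name, and they and the lists were chosen with earlier results of these data known. The genes named are all members, called genes with the largest rise or fall of each list around the pathway in a comparison, and the 3 nearest profiles of each member, except for Acly, of which only the nearest is reported here.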

Additional observations from a re-analysis of the deposited data

Results flagged for a closer look

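In T-N, Elovl6 had 1 sample far from the others. Replicate 1 was at 1008 normalized counts and the other 3 tumors at 1769 to 1792, so that the gap to the nearest sample was 0.978 of the whole range of the group. Of the 40 combinations of gene and group with 4 samples that were checked, this was the only 1 beyond Dixon's limit, and chance gives about 1 in 20. Elovl6 remained higher in T-N than in MG-WT and lower than in MG-N with and without this tumor.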

How the results depend on the processing

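Across the alternatives, 1582 gene values under other settings and 1144 with a sample left out kept their direction and their side of the threshold, 43 and 46 kept their direction but lost a call, 22 and 3 gained one, and 10 and 24 changed sign. With the muscle marker level as a covariate, 1 member was called higher in MG-NP against MG-WT instead of 8. Scd1, Fasn, Acaca and Elovl6 were no lower there (5.0, 3.96, 2.45 and 1.88). In T-NP against MG-NP 1 member was called higher instead of 2. The shares of all genes called with this covariate are not reported here. Scd2 turned to 0.77 and Ndufab1 to -0.59 in MG-NP against MG-WT, and Mlxipl to -0.999 and Acacb to -0.0726 in MG-NP against MG-N. DESeq2 called 7 members lower in MG-NP against MG-N, as it did 0.609% of all genes. It called 2 higher in the interaction, as it did 0.258% of all genes. The single fit of all 5 groups called 3 members lower in MG-NP against MG-N. In T-N against MG-N, DESeq2 and the single fit each called 2 members higher. For the single fit, and for DESeq2 in T-N against MG-N, the shares of all genes called are not reported here. Without the fold threshold 1 member was lower in T-NP against MG-WT. Values near 0 changed sign. TMM scaling gave 0.0799 for Acly in T-NP against MG-NP and -0.00285 for Mlxipl in MG-NP against MG-N, averaging T-NP replicates 1 and 2 gave -0.0555 for Scd1 in T-NP against T-N, and edgeR and DESeq2 gave 0.0359 and 0.00086 for Mlxipl in T-N against MG-WT. The cause was not tested.

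With a sample left out, members called higher ranged from 5 to 8 in MG-NP against MG-WT (5 without MG-WT replicate 3) and from 1 to 2 in T-N against MG-N (2 without T-N replicate 1), and members called in the interaction from 0 to 1 (1 without MG-NP replicate 3). Sign changes were seen in the ranges of Acacb (-0.22 to 0.27), Fasn (-0.13 to 0.44) and Mlxipl (-0.41 to 0.12) in T-N against MG-WT, of Acly in T-NP against MG-NP (-0.26 to 0.31), of Mlxipl in MG-NP against MG-N (-0.26 to 0.35), in T-NP against T-N (-0.463 to 0.0743) and in the interaction (-0.566 to 0.0442), of Scd1 in T-NP against T-N (-0.17 to 0.70), of Srebf1 in MG-NP against MG-WT (-0.0137 to 0.166) and of the log2 Acaca to Acacb ratio in T-N against MG-WT (-0.20 to 0.47).

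Replicate numbers did not pair the samples: the correlations of the deviations of same-numbered samples ran from -0.26 to 0.28, and in 0 of 8 comparisons was every pair over 0.1. With the replicate number as a block, Acacb in T-N against MG-WT was at -0.22, each count of members called was the same, and the 6 higher and 1 lower calls over all genes in T-NP against T-N became 0 and 0. Over all genes, DESeq2 called 401 genes up and 113 down between MG-N and MG-NP where limma called 0, 51 and 34 in T-NP against T-N where limma called 6 and 1, and 50 and 269 in the interaction where limma called 0. Without MG-NP replicate 3, limma called 297 and 21 genes in MG-NP against MG-N and, in the interaction, 0.0557% of genes higher (11 genes) and 0.927% lower, and without T-N replicate 1 it called 34 and 18 in T-NP against T-N and 14 and 6 in the interaction.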

Other observations

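The other marker lists moved with tissue as well as with group. All 7 basal epithelial markers were lower in MG-N and in MG-NP than in MG-WT, and all 7 were lower in T-N than in MG-N. In T-N against MG-N all 5 B cell markers, all 6 T cell markers and all 5 endothelial markers fell, and 6 of 8 fibroblast markers fell. In T-NP against MG-NP these counts were 5 of 5, 5 of 6, 5 of 5 and 4 of 7 tested. Of the 6 macrophage markers 5 were higher and 1 lower in MG-N than in MG-WT, and 4 were higher and 1 lower in MG-NP. The liver markers averaged at most 3.43 on the log2(count + 1) scale in any library, and those of epidermis and sebaceous gland at most 2.75. The liver average hides Alb, at 759 to 1484 normalized counts in MG-N and 125 to 276 in MG-NP. Alb was at most 0.488 in MG-WT, 12.8 in T-N and 6.10 in T-NP. Of the 2 liver markers tested against MG-WT, 1 was higher and 1 lower in MG-N, and 1 higher and 0 lower in MG-NP.

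The ratio of Acly to Me1 per kilobase of exon fell below 1 in each T-N tumor, at 0.602 to 0.844, and was 1.13 to 1.33 in T-NP, without overlap between the 2 tumor groups. This ratio was looked at after its values were seen and carries no test. The ratio of Fasn to Scd1 was 0.489 to 1.47 in MG-WT, 0.143 to 0.289 in MG-N, 0.162 to 0.620 in MG-NP, 0.0502 to 0.225 in T-N and 0.0835 to 0.190 in T-NP, so that MG-NP overlapped each of the other groups.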
